A study of Mus musculus with 8 samples.

Results

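The genes described here are 35 mouse genes, chosen by name with earlier results of these data known. Most encode scaffold, adaptor and spine proteins of the postsynaptic density. The others are a pair of adhesion proteins anchored in it and Syndig1l, which is placed here by its protein family. A probe set matched to a single gene symbol was found for 30 of the 35, out of 18193 genes measured in the same way. The other 5 (Shank2, Ppp1r9b, Lrrc7, Begain and Magi2) were not analysed here. Syndig1l appears in the array's annotation under its older symbol Tmem90a and was counted as a member.

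Striatal total RNA was measured on 1 array per animal, from 4 mice of the R6/2 genotype and 4 that were wild-type. R6/2 mice carry a transgene made of the first exon of the human huntingtin gene with an expanded CAG repeat, driven by human huntingtin promoter sequence, and are used as a model of Huntington's disease. All 8 animals were labelled female, strain C57Bl/6 / CBA, aged 85 days (12 weeks), and the wild-type mice carried no transgene. The wild-type mice bore the numbers 42, 48, 54 and 63 and the R6/2 mice 64, 65, 70 and 78, so each array stands for a separate animal, and another wild-type mouse counted in the design text was not analysed here.

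The postsynaptic density is a protein sheet under the membrane of excitatory synapses, where glutamate receptors are held opposite the sites of transmitter release. DLG proteins bind receptors and adhesion proteins, DLGAP proteins bind DLG proteins on one side and SHANK proteins on the other, and SHANK and Homer proteins form the deeper layer that reaches the actin of the dendritic spine. In the striatum most such synapses lie on the spines of medium spiny neurons, the projection neurons that receive cortical and thalamic input, and mouse mutants of Shank3 and of Dlgap3 are known for altered striatal synapses and excessive self-grooming.

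Of the 35 genes, 27 had at least 1 promoter window in the RefSeq promoter table of GRCm38.p6, each window running from 250 bases before to 50 after a transcription start. The 5 windows printed here are examples, picked by no fixed rule. They belong to members with 1 listed start: Shank3, Strn, Kalrn and Dlgap3, which were lower in R6/2 mice, and Homer3, which was not called. They are written 5′ to 3′ on the strand of the gene, and the capitals mark TGACG, the core of a cAMP response element, and GGGCGG, the SP1 box, on either strand.
Shank3, chr15:89499358-89499657, plus strand, GRCm38.p6: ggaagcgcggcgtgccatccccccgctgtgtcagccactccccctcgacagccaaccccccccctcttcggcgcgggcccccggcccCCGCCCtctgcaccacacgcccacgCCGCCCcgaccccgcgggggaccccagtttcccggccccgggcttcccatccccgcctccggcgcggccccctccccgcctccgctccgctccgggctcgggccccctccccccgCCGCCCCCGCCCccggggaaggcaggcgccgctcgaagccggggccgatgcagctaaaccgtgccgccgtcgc
Strn, chr17:78736512-78736811, minus strand, GRCm38.p6: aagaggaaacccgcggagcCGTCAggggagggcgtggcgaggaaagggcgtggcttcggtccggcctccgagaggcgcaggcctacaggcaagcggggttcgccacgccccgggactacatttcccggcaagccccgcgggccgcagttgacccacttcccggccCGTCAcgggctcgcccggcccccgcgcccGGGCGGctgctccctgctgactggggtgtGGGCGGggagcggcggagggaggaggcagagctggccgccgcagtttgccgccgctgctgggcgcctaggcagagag
Kalrn, chr16:34513978-34514277, minus strand, GRCm38.p6: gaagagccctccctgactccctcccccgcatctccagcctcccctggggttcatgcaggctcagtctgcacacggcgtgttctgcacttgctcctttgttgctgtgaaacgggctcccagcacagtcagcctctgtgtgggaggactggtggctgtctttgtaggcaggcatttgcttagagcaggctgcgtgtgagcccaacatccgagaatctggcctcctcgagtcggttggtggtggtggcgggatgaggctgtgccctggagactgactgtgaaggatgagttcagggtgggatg
Dlgap3, chr4:127172630-127172929, plus strand, GRCm38.p6: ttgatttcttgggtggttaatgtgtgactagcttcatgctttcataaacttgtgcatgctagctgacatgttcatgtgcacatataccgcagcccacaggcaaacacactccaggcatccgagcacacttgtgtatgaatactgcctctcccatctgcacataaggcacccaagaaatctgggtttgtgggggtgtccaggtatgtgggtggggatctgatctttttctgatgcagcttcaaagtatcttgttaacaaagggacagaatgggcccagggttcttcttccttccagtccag
Homer3, chr8:70282749-70283048, plus strand, GRCm38.p6: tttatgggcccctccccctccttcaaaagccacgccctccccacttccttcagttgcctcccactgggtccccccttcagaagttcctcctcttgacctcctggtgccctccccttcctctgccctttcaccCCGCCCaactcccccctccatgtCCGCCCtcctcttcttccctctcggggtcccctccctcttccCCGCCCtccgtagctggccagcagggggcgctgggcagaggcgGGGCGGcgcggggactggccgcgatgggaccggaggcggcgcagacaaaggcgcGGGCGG
GC content in these windows was 81.0% for Shank3, 74.7% for Strn, 60.3% for Kalrn, 47.7% for Dlgap3 and 69.7% for Homer3. The Shank3 window held 40 CpG dinucleotides and the Dlgap3 window 2. SP1 boxes stood in the windows of Shank3, Strn and Homer3, and the windows of Kalrn and Dlgap3 held neither motif. The Strn window also held 2 copies of TGACG. Actn2 and Baiap2, also called lower and with 1 listed start, are not printed. Their windows held SP1 boxes, at a GC content of 64.7% and 70.3%. The window of the uncalled Dlgap4, likewise not printed, held SP1 boxes and TGACG.

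Over the 55 windows of the 27 genes, the median GC content was 63.7% and the median CpG number 16, against 52.7% and 7 over all 32841 promoter windows. Windows of a gene with several starts can overlap. Both strands were searched. GGGCGG was found in 31 of the 55 windows and in 35.7% of all windows. TGACG was found in 10 of the 55 and in 20.8% of all, and the full element TGACGTCA, which contains that core, in 0 of the 55 and 1.79% of all. The EGR site GCGGGGGCG, which can overlap an SP1 box, was found in 3 of the 55 windows and 2.91% of all, the E box CACGTG in 7 and 7.15%, and the TATA box TATAAA in 6 and 13.6%. By gene, GGGCGG occurred in 10 of the 14 members called lower that had an entry and in 8 of the 9 uncalled members that had one. TGACG occurred in 4 of those 14 and 5 of those 9. A gene was counted when any of its windows held the letters, so genes with more listed starts had more chances. No share by gene was taken over all genes, so these counts have no background here. These matches describe letters in a window, not binding.

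Expression values were log2 intensities per probe set, and each gene is represented by its probe set with the highest mean over the 8 arrays. Array medians lay between 5.08 and 5.13 and pairwise correlations spanned 0.983 to 0.994. Precision is limited by the 8 arrays. The mouse Htt probe set differed by -0.04 ± 0.075 (log2 and SE, limma with Benjamini-Hochberg adjustment, adjusted p = 0.751). Whether its probes can read the human transgene was not examined, so it does not check the genotype labels. Differences are R6/2 minus wild-type on the log2 scale with the standard error of the limma fit, a fold is 2 raised to the size of that difference, and the threshold for a call was 0.05 on the p adjusted over all 18193 genes.

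At least 1 member was called lower in R6/2 striatum in each role group except that of Homer2 and Homer3. Of the 30 measured members, 19 fell, which is 63.3%, while 6.19% of all genes were called lower. Because the list was chosen with earlier results of these data known, the member shares given here are descriptions and no independent test. No member was called higher, with 1 (Nlgn3) at an unadjusted p under 0.05, while 9.09% of all genes were called higher. That last share was 5.06%, 5.47% and 5.08% without wild-type mouse 48, R6/2 mouse 64 and R6/2 mouse 70. The median difference over the 30 members was -0.46, against -0.0034 over all genes, and 27 of the 30 differences were negative. In 19 members every R6/2 mouse lay below every wild-type mouse, as did 7.67% of all genes. These 19 were Dlgap4, which was not called, and 18 of the 19 called members, the exception being Cnksr2. Called members were 1.24-fold to 2.6-fold lower, with a median of 1.5-fold, and Syndig1l, Strn and Kalrn were at least 2-fold lower on the probe set used. With a gene's probe sets averaged, Strn and Kalrn were below 2-fold, at log2 differences of -0.67 and -0.41. Most members were well expressed. Among genes with a mean log2 value of at least 7, 19 of 28 members (67.9%) were called lower, against 10.1% of 7526 genes. In bulk tissue, fewer cells of a type and less RNA per cell cannot be told apart, which applies to every difference given here.

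**Figure D1:**
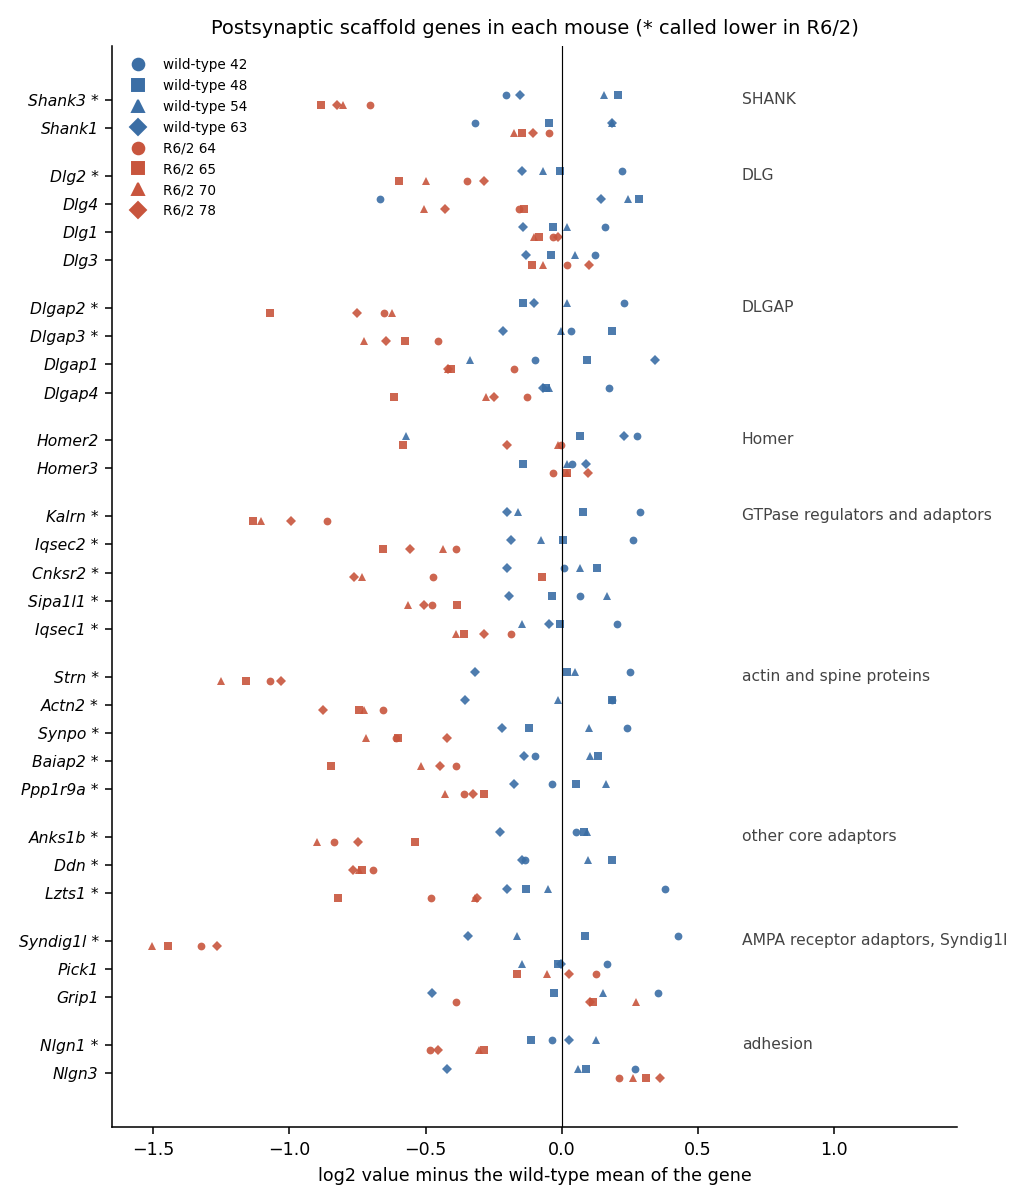
Log2 value of each of the 30 measured scaffold genes in each mouse, minus the wild-type mean of that gene, grouped by role, with wild-type mice in blue, R6/2 mice in red and 1 marker shape per mouse number within a genotype. An asterisk marks the 19 genes called lower, and the red markers lie furthest left for Syndig1l, Strn and Kalrn and mix with the blue ones for Dlg1, Dlg3, Homer2, Homer3, Pick1 and Grip1.

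Shank3, which encodes a SHANK protein prominent at striatal synapses, had log2 values of 10.27, 10.68, 10.63 and 10.32 in wild-type mice 42, 48, 54 and 63, and of 9.77, 9.59, 9.67 and 9.65 in R6/2 mice 64, 65, 70 and 78. Values are given in this order of mice throughout. The 4 R6/2 mice lay close together and all below the lowest wild-type mouse. Its mean fell from 10.48 ± 0.21 to 9.67 ± 0.073 (SD, n = 4 each), a log2 difference of -0.80 ± 0.10 (SE, 1.75-fold; limma, adjusted p = 0.000994). Shank1 was dim, with values of 4.14, 4.41, 4.64 and 4.64 in wild-type and 4.41, 4.31, 4.28 and 4.35 in R6/2 mice. These groups overlapped. Its difference was -0.12 ± 0.11 (limma, adjusted p = 0.517), on a probe set whose mean of 4.4 lay below the median gene mean of 6.27.

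The DLG proteins are the membrane-associated guanylate kinases that anchor receptors, and 1 of their 4 genes fell. Dlg2 had log2 values of 10.65, 10.42, 10.36 and 10.28 in wild-type and 10.08, 9.83, 9.93 and 10.14 in R6/2 mice, with no overlap. The difference was -0.44 ± 0.10 (SE, 1.35-fold; limma, adjusted p = 0.0163). Without R6/2 mouse 70 it was -0.41 and missed the threshold, at an adjusted p of 0.0516. Dlg1, whose protein traffics AMPA receptors, had values of 10.61, 10.42, 10.47 and 10.31 in wild-type and 10.42, 10.37, 10.35 and 10.44 in R6/2 mice. Dlg3 had 9.82, 9.66, 9.75 and 9.57 in wild-type and 9.72, 9.59, 9.63 and 9.80 in R6/2 mice. Groups overlapped in both, and the differences of -0.06 ± 0.077 for Dlg1 and -0.02 ± 0.081 for Dlg3 were smaller than their errors (limma, adjusted p = 0.662 and 0.905).

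Dlg4 encodes the most abundant DLG scaffold of the density, and its values turned on 1 animal. They were 8.05, 9.0, 8.96 and 8.86 in wild-type and 8.56, 8.58, 8.21 and 8.29 in R6/2 mice. Wild-type mouse 42 lay below all R6/2 mice, and the other wild-type mice lay above them all. With all mice the difference was -0.31 ± 0.19 (limma, adjusted p = 0.323). Without wild-type mouse 42 it was -0.53 (limma, adjusted p = 0.0126). The same mouse was also the lowest on a dimmer Dlg4 probe set, at 6.09 against 7.73 to 8.02 in the other wild-type mice. On the dimmest Dlg4 set, with a mean of 4.49, mouse 42 did not stand out, at 4.62 against 4.53 to 4.65. There every R6/2 mouse lay below every wild-type mouse, but the set was not called (-0.22, limma over all probe sets, adjusted p = 0.102).

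DLGAP proteins link DLG to SHANK, and 2 of the 4 genes fell. Dlgap2 had log2 values of 8.51, 8.14, 8.30 and 8.18 in wild-type and 7.63, 7.21, 7.66 and 7.53 in R6/2 mice. Every R6/2 value was lower than every wild-type value. Its mean fell from 8.28 ± 0.16 to 7.51 ± 0.21 (SD, n = 4 each), a difference of -0.78 ± 0.12 (SE, 1.71-fold; limma, adjusted p = 0.00217). Dlgap3, the DLGAP gene with the most prominent striatal expression, had values of 10.50, 10.65, 10.46 and 10.25 in wild-type and 10.01, 9.89, 9.74 and 9.82 in R6/2 mice. Its groups did not overlap either, and it fell by 0.60 on the log2 scale (SE 0.097, 1.52-fold; limma, adjusted p = 0.00294).

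The other DLGAP genes were not called. Dlgap4 had values of 9.78, 9.55, 9.56 and 9.54 in wild-type and 9.48, 8.99, 9.33 and 9.36 in R6/2 mice. All R6/2 values lay below the wild-type ones, by as little as 0.05 between the nearest mice, and the difference was -0.32 ± 0.11 (limma, adjusted p = 0.0753, and 0.0483 after quantile normalization). Dlgap1 had values of 9.19, 9.38, 8.95 and 9.63 in wild-type and 9.11, 8.88, 8.87 and 8.87 in R6/2 mice, with R6/2 mouse 64 above wild-type mouse 54. Its difference was -0.35 ± 0.13 (limma, adjusted p = 0.104), and -0.47 without wild-type mouse 54 (adjusted p = 0.0305). Of its 5 other probe sets, 1 was called lower, by 0.66 (limma over all probe sets, adjusted p = 0.0404).

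Homer proteins tie SHANK to metabotropic glutamate receptors and calcium stores, and neither Homer2 nor Homer3 was called. Homer1 was not among the members and is counted with the other scaffolds below, where it was called lower, by 0.80. Homer2 had log2 values of 7.97, 7.76, 7.12 and 7.92 in wild-type and 7.69, 7.11, 7.68 and 7.49 in R6/2 mice. Homer3 had 5.65, 5.47, 5.63 and 5.70 in wild-type and 5.58, 5.63, 5.63 and 5.71 in R6/2 mice. The Homer3 probe set was dim, with a mean of 5.62, below the median gene mean of 6.27. The groups overlapped for both genes, with differences of -0.20 ± 0.19 for Homer2 and 0.02 ± 0.073 for Homer3 (limma, adjusted p = 0.531 and 0.865).

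All 5 regulators of small GTPases and their adaptors fell. Kalrn, which encodes a guanine nucleotide exchange factor for Rac that enlarges spines, had log2 values of 10.89, 10.68, 10.44 and 10.40 in wild-type and 9.74, 9.47, 9.5 and 9.61 in R6/2 mice. The gap between the nearest mice of the groups was 0.66. Its mean fell from 10.60 ± 0.23 to 9.58 ± 0.12 (SD, n = 4 each), a difference of -1.02 ± 0.12 (SE, 2.03-fold; limma, adjusted p = 0.000498). Sipa1l1, a Rap GTPase-activating protein that binds DLG proteins, had values of 11.79, 11.69, 11.89 and 11.53 in wild-type and 11.25, 11.34, 11.16 and 11.22 in R6/2 mice. The groups were apart, and the gene fell by 0.48 on the log2 scale (SE 0.088, 1.4-fold; limma, adjusted p = 0.00528).

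Iqsec2, an Arf exchange factor of excitatory synapses, had values of 8.71, 8.45, 8.37 and 8.26 in wild-type and 8.06, 7.79, 8.01 and 7.89 in R6/2 mice. It fell by 0.51 (SE 0.10, 1.43-fold; limma, adjusted p = 0.00931), with no overlap. Its paralog Iqsec1 fell by 0.31 (SE 0.089, 1.24-fold; limma, adjusted p = 0.0417), with 0.04 between the nearest mice. That call was lost when any 1 of 6 mice was left out, with the highest adjusted p, 0.112, without R6/2 mouse 70. Cnksr2, a scaffold of Ras pathway proteins, fell by 0.51 (SE 0.15, 1.42-fold; limma, adjusted p = 0.0407). R6/2 mouse 65, at 7.66, lay above wild-type mouse 63, at 7.53, and the call was lost without any 1 of 6 mice, again with the highest adjusted p (0.114) without R6/2 mouse 70.

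All 5 measured actin and spine proteins fell. Strn encodes striatin, a calmodulin-binding scaffold of protein phosphatase 2A named for its abundance in the striatum. Its log2 values were 10.72, 10.49, 10.52 and 10.15 in wild-type and 9.40, 9.31, 9.22 and 9.44 in R6/2 mice. The groups lay 0.70 apart at their nearest mice. The mean fell from 10.47 ± 0.24 to 9.34 ± 0.098 (SD, n = 4 each), a difference of -1.12 ± 0.11 (SE, 2.18-fold; limma, adjusted p = 0.0003). Actn2, an alpha-actinin that crosslinks actin and binds NMDA receptors, had values of 8.85, 8.85, 8.65 and 8.31 in wild-type and 8.01, 7.92, 7.94 and 7.79 in R6/2 mice. It fell by 0.75 (SE 0.12, 1.68-fold; limma, adjusted p = 0.00267), and its groups did not overlap.

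Synpo, which encodes synaptopodin of the spine apparatus, had values of 9.32, 8.96, 9.18 and 8.86 in wild-type and 8.47, 8.48, 8.36 and 8.66 in R6/2 mice. It fell by 0.59 (SE 0.11, 1.5-fold; limma, adjusted p = 0.00615), again with the groups apart. Baiap2, an adaptor between Rac, actin regulators and SHANK, fell by 0.55 (SE 0.11, 1.46-fold; limma, adjusted p = 0.00895). Ppp1r9a encodes neurabin, which brings protein phosphatase 1 to spine actin, and it fell by 0.35 (SE 0.084, 1.27-fold; limma, adjusted p = 0.0197). The Ppp1r9a call was lost without wild-type mouse 48 (-0.33, adjusted p = 0.0596) and without R6/2 mouse 70 (-0.32, adjusted p = 0.0622).

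The 3 other measured core adaptors fell as well. Ddn, which encodes dendrin, a dendritic protein that binds actinin and membrane scaffolds, had log2 values of 11.22, 11.54, 11.45 and 11.21 in wild-type and 10.66, 10.62, 10.61 and 10.59 in R6/2 mice. The R6/2 mice lay close together, and all were below the wild-type mice. Its mean fell from 11.35 ± 0.17 to 10.62 ± 0.027 (SD, n = 4 each), a difference of -0.73 ± 0.088 (SE, 1.66-fold; limma, adjusted p = 0.000645). Anks1b, whose protein regulates the traffic of NMDA receptor subunits, had values of 10.10, 10.13, 10.14 and 9.82 in wild-type and 9.21, 9.51, 9.15 and 9.30 in R6/2 mice. It fell by 0.76 (SE 0.10, 1.69-fold; limma, adjusted p = 0.00128), with the groups apart although wild-type mouse 63 lay below the other wild-type mice.

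Lzts1, a scaffold that binds SHANK, had values of 9.07, 8.56, 8.64 and 8.49 in wild-type and 8.21, 7.87, 8.37 and 8.38 in R6/2 mice. The groups lay 0.10 apart, and the gene fell by 0.48 (SE 0.15, 1.4-fold; limma, adjusted p = 0.0494). This call was lost without any 1 of 7 mice, wild-type mouse 63 being the exception, with the highest adjusted p, 0.114, without R6/2 mouse 65.

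Syndig1l was grouped, by its family, with the AMPA receptor adaptors Pick1 and Grip1. Syndig1l fell, and the adaptors were not called. Syndig1l belongs to the family of SynDIG1, which binds AMPA receptors. Whether the Syndig1l protein itself is a scaffold of the density was not examined here. Its log2 values were 11.58, 11.24, 10.99 and 10.81 in wild-type and 9.83, 9.71, 9.65 and 9.89 in R6/2 mice. The groups were separated by 0.91 at their nearest mice, the widest gap of any member. The mean fell from 11.15 ± 0.33 to 9.77 ± 0.11 (SD, n = 4 each), a difference of -1.38 ± 0.14 (SE, 2.6-fold; limma, adjusted p = 0.000334). It ranked 33 among all 18193 genes ordered from the most negative difference, with Strn at 83, Kalrn at 100 and Shank3 at 209.

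Pick1, which encodes a PDZ protein that withdraws AMPA receptors from the surface, had values of 7.67, 7.49, 7.36 and 7.50 in wild-type and 7.63, 7.34, 7.45 and 7.53 in R6/2 mice. Grip1, which encodes a PDZ protein that holds AMPA receptors, had 7.42, 7.04, 7.22 and 6.59 in wild-type and 6.68, 7.18, 7.34 and 7.17 in R6/2 mice. The groups overlapped in both, with differences of -0.02 ± 0.089 and 0.03 ± 0.18 (limma, adjusted p = 0.909 and 0.939).

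The neuroligins, postsynaptic adhesion proteins that bind neurexins, lay on opposite sides of 0. Nlgn1, found at excitatory synapses, had log2 values of 8.42, 8.34, 8.58 and 8.48 in wild-type and 7.97, 8.17, 8.15 and 8.0 in R6/2 mice. It fell by 0.38 (SE 0.081, 1.30-fold; limma, adjusted p = 0.0109), with the groups apart. Nlgn3, found at excitatory and inhibitory synapses, had values of 8.39, 8.21, 8.18 and 7.70 in wild-type and 8.33, 8.43, 8.38 and 8.48 in R6/2 mice. Wild-type mouse 42 lay among the R6/2 mice and the other wild-type mice below them, and the difference of 0.28 ± 0.13 was not called (limma, adjusted p = 0.164).

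Members of the same protein family were then compared directly, by taking the log2 value of one gene minus the other in each mouse and testing the group difference. Of 19 planned pairs, 16 had both genes measured. With 4 mice against 4, the exact 2-sided permutation test cannot give a p below 0.0286, which after adjustment over the 16 pairs was 0.0914 here, so none of the 16 passed 0.05. In 5 pairs the groups did not overlap and the p was that smallest value. Shank1 minus Shank3 differed between the genotypes by 0.68 ± 0.13 (log2, SE), but the Shank1 probe set is dim, where RMA compresses differences, so this pair gives no order of the paralogs. Dlg1 minus Dlg2 differed by 0.38 ± 0.063. The Dlg2 minus Dlg3 difference was -0.42 ± 0.053, that of Dlgap2 minus Dlgap4 was -0.46 ± 0.055, and that of Nlgn1 minus Nlgn3 was -0.67 ± 0.17. For the other 11 pairs the unadjusted exact permutation p ran from 0.0571 (Iqsec1 minus Iqsec2, 0.21 ± 0.073) to 0.886. The Iqsec pair turned to -0.12 with the mean of all probe sets of each gene. The 3 Dlg4 pairs carried errors of 0.29 to 0.32, and wild-type mouse 42 lay apart in each of them.

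**Figure D2:**
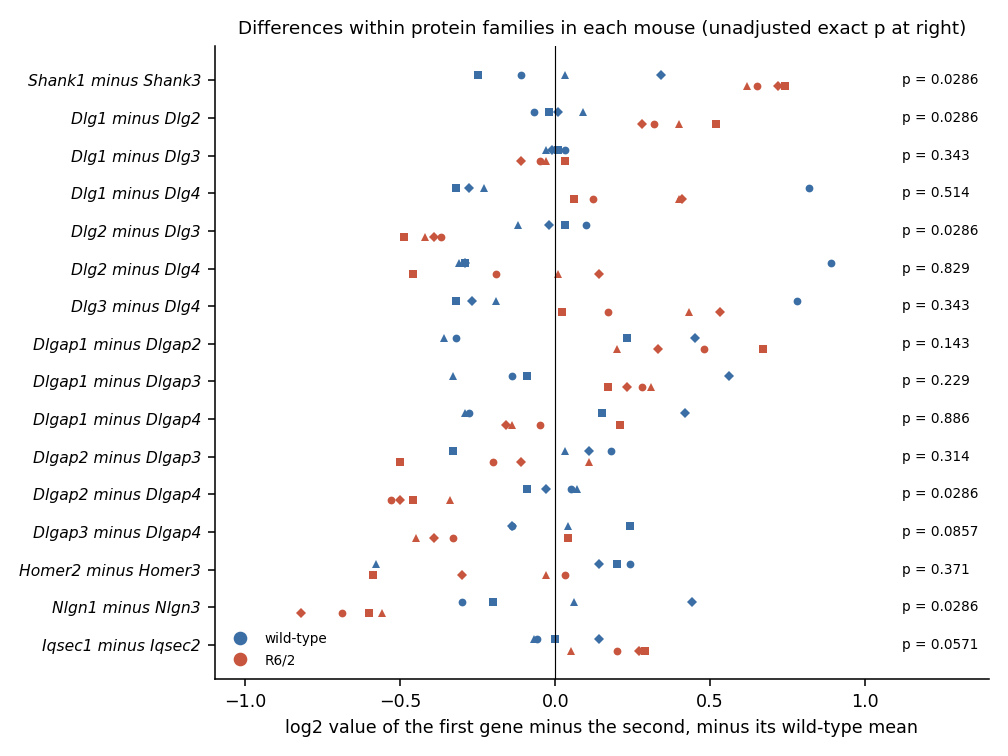
Difference in log2 value between paralogs in each mouse, minus the wild-type mean of that difference, for the 16 pairs with both genes measured, with wild-type mice in blue and R6/2 mice in red and the unadjusted exact permutation p at the right. Red and blue do not overlap for the 5 pairs at the smallest exact permutation p of 0.0286, and wild-type mouse 42 (a blue circle) is the outlying point of each Dlg4 pair, at 0.78 to 0.89.

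The array carried 80 probe sets for the 30 members, 50 of them beside the ones used, and 9 members had a single probe set. Fitted over all 45037 probe sets, 33 of the 80 were called lower, against 4.59% of all probe sets, and 0 were called higher. Of the 50 others, 17 were lower and 33 were not called. For members called lower, 29 of 34 other probe sets had a negative difference and 16 were called lower, and among the 15 with a mean of at least 7 the number called lower was 11. All 4 probe sets of Baiap2 were lower, with differences of -0.49 to -0.63, as were all 5 of Ppp1r9a, with -0.35 to -0.63. The second probe set of Syndig1l gave -1.34 and that of Strn -0.74. Anks1b gave -1.02 and -0.58 on its next brightest called probe sets.

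Some probe sets disagreed with the one used. Of the 8 for Kalrn, 4 were called lower, with differences of -0.50 to -1.04, and 1 lay at 0.39 ± 0.12 (limma, adjusted p = 0.063). The Iqsec2 set next in brightness lay at 0.21 ± 0.083 (adjusted p = 0.154), and dim sets of Nlgn1, Anks1b and Dlg2 lay between 0.00 and 0.06. With the mean of all probe sets of each gene in place of the brightest, Iqsec2 (-0.19, adjusted p = 0.149), Nlgn1 (-0.17, 0.165) and Dlg2 (-0.25, 0.0725) were no longer called. Kalrn (-0.41), Strn (-0.67), Anks1b (-0.40) and Synpo (-0.36) were still called on that mean, with smaller differences. Nlgn3 had a second probe set at 0.58 ± 0.22 (adjusted p = 0.126) and another at -0.10. Cnksr2, Iqsec1 and Lzts1, called among genes, had adjusted p-values of 0.0569, 0.0568 and 0.0686 on the same probe sets when the adjustment ran over all probe sets.

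**Figure D3:**
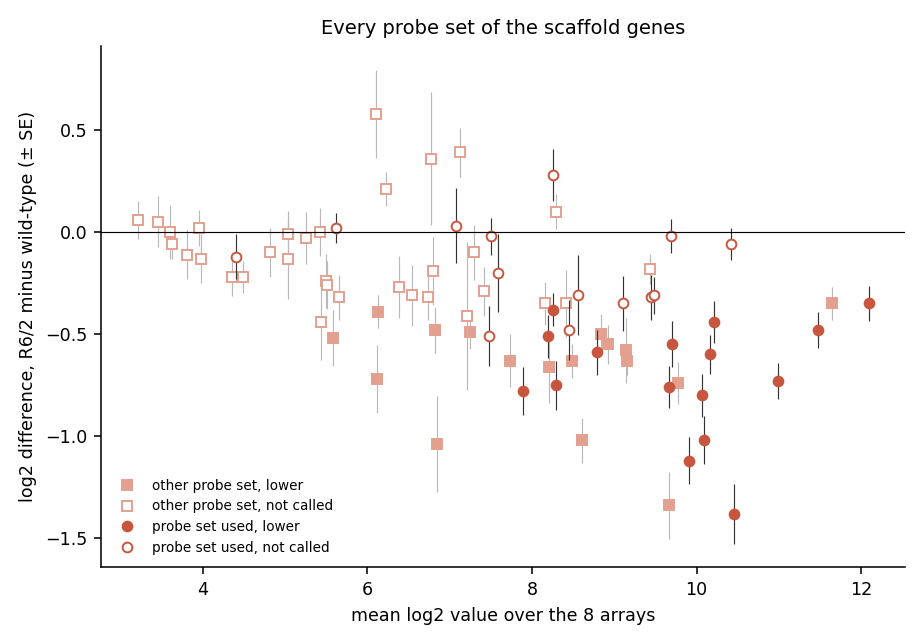
Log2 difference, R6/2 minus wild-type, with its SE, against the mean log2 value over the 8 arrays, for all 80 probe sets of the 30 members, with circles for the probe set used for a gene, squares for the others and filled marks for those called lower in the fit over all probe sets. Filled marks are those of the 33 sets called lower, most dim sets lie near 0, and no set was called higher.

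Spread between mice was wider in wild-type animals. The SD of 25 of the 30 members (83.3%) was larger in wild-type than in R6/2 mice, against 57.7% of all genes, with median SDs of 0.17 and 0.12 for members and 0.13 and 0.12 for all genes. Wild-type mouse 63 held the lowest wild-type value in 20 of the 30 members, and wild-type mouse 42 the highest in 16. Averaged over members, the distance of each mouse from the wild-type mean was 0.09, 0.03, 0.00 and -0.13 in wild-type and -0.40, -0.50, -0.48 and -0.43 in R6/2 mice. All R6/2 mice lay below every wild-type mouse, and close to each other.

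Markers of the cells in the dissection were read on the same scale. Of 13 measured markers of medium spiny neurons, 12 were called lower and Tac1 was not. Their mean score was 0.02, 0.05, 0.15 and -0.23 in wild-type and -0.83, -0.84, -0.83 and -0.82 in R6/2 mice. Ppp1r1b, a defining marker, had a mean of 12.17 in wild-type and 11.25 in R6/2 mice, so the labelled tissue carried its markers in both groups. Since every R6/2 score lay below every wild-type score, the marker level of these neurons and the genotype cannot be told apart, and its part in the scaffold differences was not tested. Wild-type mouse 63 was the lowest wild-type mouse on this list as on the members.

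Cortical projection neuron markers also differed between mice. Their mean score was 0.30, 0.07, -0.57 and 0.20 in wild-type and -0.06, -1.02, -0.51 and -0.93 in R6/2 mice, and all 10 measured markers had a negative difference. Of the 10, 1 was called lower (Slc30a3, by 0.67) and 7 had an unadjusted p under 0.05. Slc17a7, the vesicular glutamate transporter of cortical projection neurons, had values of 8.66, 8.36, 5.80 and 8.58 in wild-type and 7.64, 5.08, 6.43 and 5.30 in R6/2 mice, so wild-type mouse 54 lay among the R6/2 mice. With this score as a covariate, 13 members were called lower, against 2.81% of all genes, and 0 higher. The differences were then -1.28 for Syndig1l, -1.13 for Strn, -0.86 for Kalrn and -0.85 for Shank3. Baiap2, Cnksr2, Dlg2, Iqsec1, Iqsec2 and Lzts1 were no longer called (adjusted p from 0.0794 to 0.358), with the median SE of members at 0.12 in place of 0.093. Their differences were then -0.50 for Baiap2, -0.61 for Cnksr2, -0.35 for Dlg2, -0.37 for Iqsec2 and Lzts1, and -0.18 for Iqsec1.

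Markers of other cell types were also counted, against the 6.19% of all genes called lower. The called numbers, all lower, were 3 of 6 for striatal interneurons, 3 of 8 for astrocytes, 2 of 7 for oligodendrocytes and 2 of 5 for endothelial cells. On the mean scores of striatal interneurons, astrocytes and endothelial cells, every R6/2 mouse lay below every wild-type mouse. In that order, R6/2 scores ran from -0.56 to -0.23, -0.27 to -0.18 and -0.38 to -0.22. The lowest wild-type scores were -0.17, -0.15 and -0.17. These marker levels and the genotype cannot be told apart either. Oligodendrocyte and microglia scores overlapped between the genotypes. For microglia 0 of 8 were called, with 1 lower at an unadjusted p under 0.05. Ependymal and choroid plexus markers varied within both groups, with scores of -0.30, 0.20, -0.82 and 0.91 in wild-type and -0.94, 1.20, 0.89 and 0.67 in R6/2 mice, and 1 of 7 was called lower. The part of these cells in the scaffold differences was not tested.

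**Figure D4:**
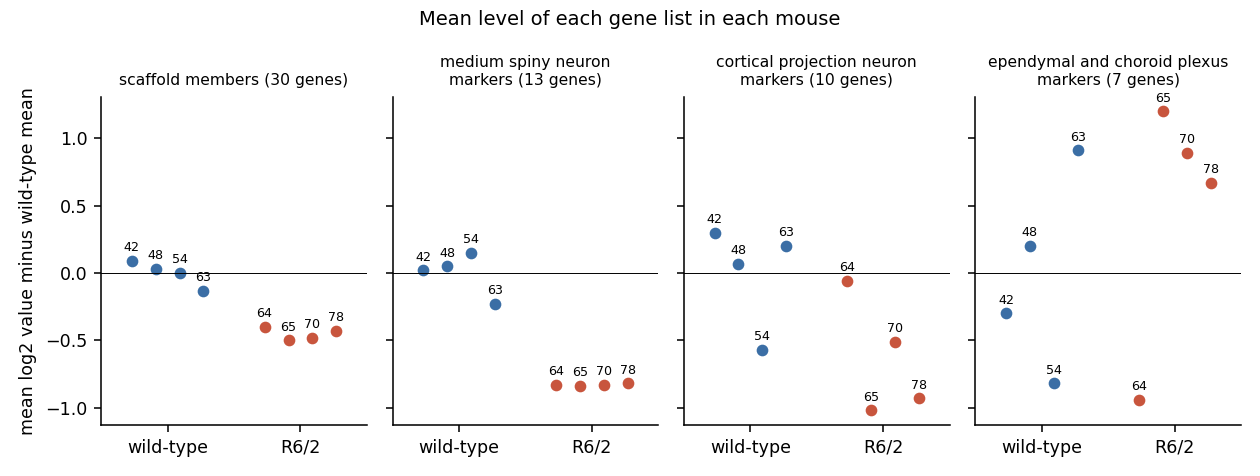
Mean over each list of the log2 value minus the wild-type mean of the gene, in each numbered mouse, for the 30 scaffold members and for markers of medium spiny neurons, cortical projection neurons, and ependymal and choroid plexus cells. Scaffold and medium spiny neuron scores separate the genotypes, with R6/2 mice at -0.50 to -0.40 and -0.84 to -0.82. The cortical and the ependymal and choroid plexus scores vary from mouse to mouse within each genotype. Scores of striatal interneuron, astrocyte and endothelial markers, not drawn here, also separate the genotypes.

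The proteins that work with these scaffolds were read from 8 further lists, also chosen with earlier results of these data known. Each is to be set against the 6.19% of all genes called lower and the 9.09% called higher. Among 25 other scaffolds, 7 fell and 2 rose, with a median difference of -0.17. Lin7b, a partner of CASK, fell by 0.87 ± 0.091 (log2, SE), Homer1, which encodes long scaffold forms and a short activity-induced form, by 0.80 ± 0.11, and Arc, the activity-induced endocytic scaffold, by 1.41 ± 0.22 (limma, adjusted p = 0.000334, 0.00112 and 0.00229). The size for Homer1 depended on the probe set. Its other called sets ran from -0.62 to -2.49 (limma over all probe sets, adjusted p from 0.00086 to 0.00867). The dimmest Homer1 set, with a mean of 3.28, was not called. The brightest uncalled gene, Tanc2, had a difference of -0.13 (adjusted p = 0.312). The risers, named after their values were seen, were Dlg5 (0.48, adjusted p = 0.00624) and Ppfia2 (0.35, 0.0282). Only 1 of them was called when any of mice 54, 64, 65 and 70 was left out. Among the uncalled scaffolds, other probe sets were called lower for 2 genes (Lin7a and Ppfia4) and higher for 2 (Magi1 and Trio).

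Of 15 measured glutamate receptor subunits, 5 fell and 0 rose, and all 15 differences were negative, with a median of -0.19. The kainate receptor gene Grik2 fell by 1.08, and the NMDA receptor genes Grin2c and Grin2b by 0.85 and 1.03 (limma, adjusted p = 8.51e-05, 0.000248 and 0.0021). The AMPA receptor gene Gria2 had a difference of -0.12 (adjusted p = 0.390). Grin2b and Grik2 fell on the probe set used, while their other probe sets, with differences of -0.33 to 0.00 for Grin2b and -0.38 for Grik2, were not called. Of 12 AMPA receptor auxiliary subunits, 3 fell and 0 rose, with a median of -0.36. Gsg1l fell by 1.76, Cacng4 by 0.96 and Cacng2, which encodes stargazin, by 0.54 (limma, adjusted p = 0.000103, 0.0012 and 0.00302). Cnih2 (-0.27) rounded to an adjusted p of 0.05 and lay just above the threshold, and the number called was 5 without wild-type mouse 54 or 63. Another probe set of the uncalled Cacng8 was called higher (0.55).

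Postsynaptic signalling enzymes moved most often among the 8 lists, with 9 of 16 lower, 1 higher and a median of -0.32. The CaMKII subunit genes Camk2a and Camk2b fell by 0.70 and 0.62 and the kinase gene Mink1 by 0.54 (limma, adjusted p = 0.0011, 0.0013 and 0.00172), and Rapgef2 had a difference of -0.03 (adjusted p = 0.859). Arhgef7, a Rac exchange factor bound to SHANK and named after its values were seen, rose by 0.82 (adjusted p = 0.00204) on the probe set used. Its other probe set was called lower, by 0.69 (adjusted p = 0.00232 over all probe sets), so the gene has no settled direction here. Of the uncalled genes, Rasgrf1 had another probe set called higher (0.64), and Tnik had others called in both directions (0.44 and -0.86). The list had 2 genes called higher without wild-type mouse 63. Tiam1, called lower among genes (limma, adjusted p = 0.0468), had 0.0645 on the same probe set with the adjustment over all probe sets.

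Postsynaptic adhesion genes went both ways, with 6 of 22 lower and 3 higher and a median of -0.057. Lrrtm1 fell by 0.80 and Efnb3 by 0.40, while Slitrk4 rose by 0.36 (limma, adjusted p = 0.00325, 0.00769 and 0.0103). Ctnnb1, the brightest uncalled gene, had a difference of 0.15 (adjusted p = 0.153), and Lrfn2 (0.36) and Lrrtm4 (0.45), named after their values were seen, also rose. A second Lrrtm4 probe set lay at -0.0036, and a second Ctnnb1 probe set was called higher (0.47, adjusted p = 0.0303 over all probe sets), as was another of Epha4 lower (-0.58). The number lower was 3 when wild-type mouse 42, wild-type mouse 48 or R6/2 mouse 78 was left out, and the number higher was 1 without R6/2 mouse 70. Lrrc4 and Lrrtm3 were called lower among genes (limma, adjusted p = 0.0388 and 0.0481). With the adjustment over all probe sets they had 0.0539 and 0.0658 on the same probe sets. None of 5 presynaptic partners (neurexins and receptor phosphatases) was called by limma on the probe set used, with 1 lower at an unadjusted p under 0.05 and a median of -0.15. Ptprs had a difference of -0.13 (adjusted p = 0.378), and another probe set of Nrxn3 was called lower (-0.32, adjusted p = 0.0373 over all probe sets).

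Of 19 spine actin regulators, 2 fell and 2 rose (10.5% each, near the 6.19% and 9.09% of all genes), with a median of -0.068. The GTPase genes Cdc42 and Rac1 rose by 0.51 and 0.34, and Abi2 fell by 0.39 (limma, adjusted p = 0.00562, 0.033 and 0.0136), as did Actn1, named after its values were seen, by 0.36 (adjusted p = 0.0467). With the adjustment over all probe sets, that Actn1 set had an adjusted p of 0.0644, and another was called lower (-0.50, 0.0461). None of the 3 other probe sets of Cdc42 was called, at 0.05 to 0.29. Of the uncalled genes, 5 had another probe set called lower, Myo5a (-0.74 and -0.34), Arpc2 (-0.60), Cttnbp2 (-0.59), Abi1 (-0.54) and Limk1 (-0.48), and Cttn had another called higher (0.43). Pfn2 had a difference of 0.11 (adjusted p = 0.366). The number lower was 1 when any of mice 42, 48, 54, 64, 70 and 78 was left out, and the number higher was 1 when wild-type mouse 42, wild-type mouse 48 or any 1 of the R6/2 mice was left out. Of 7 genes of inhibitory postsynaptic sites, 0 were called by limma, with 2 lower at an unadjusted p under 0.05 and a median of -0.097. Nlgn2, the neuroligin of inhibitory synapses, had a difference of -0.09 (adjusted p = 0.583), and 1 gene of the list was called lower without wild-type mouse 63.

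**Figure D5:**
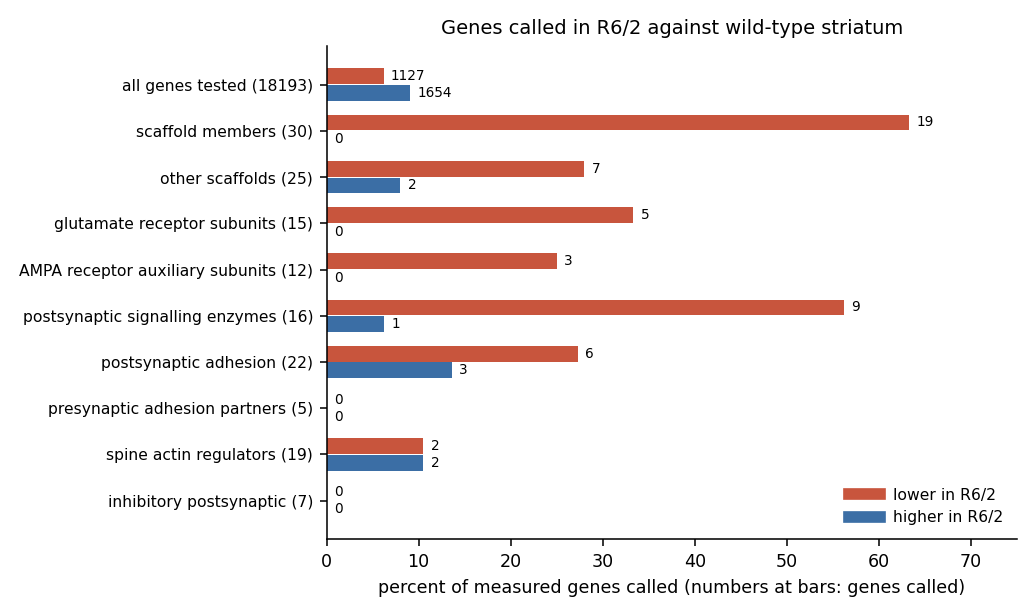
Percent of measured genes called lower (red) and higher (blue) in R6/2 mice for all genes, for the scaffold members and for the 8 further synaptic lists, with the number called at each bar and the number measured in brackets. The scaffold bar (19 of 30, 63.3%) and the signalling bar (9 of 16) are the longest, and the presynaptic and inhibitory lists have no called gene.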

How the data were processed

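Biotin-labelled striatal RNA was hybridised to Affymetrix arrays, per the labels' protocols. Each deposited value is the log2 intensity of a probe set, and the authors summarised the probes by RMA in affy, per the submitters' processing notes. Versions, and which arrays were normalized together, are not given in the sources used here. Of 45101 probe sets, 64 controls were left out, 34945 had 1 gene symbol in the platform annotation, 932 had several and 9160 had no entry, and the symbols were updated by Entrez ID against RefSeq genes of GRCm38.p6 (34741 matched). The genotypes were compared with limma 3.58.1 in R 4.3.3 (lmFit and eBayes, 8 arrays, constant prior), with Benjamini-Hochberg adjustment over 18193 genes or over 45037 probe sets. The script was tested on simulated data. RMA compresses differences of dim probe sets.

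The members, the 8 synaptic lists and the 8 marker lists were chosen with earlier results of these data known. Members given mouse by mouse were, in each role group, up to 3 called genes with the smallest adjusted p and up to 2 uncalled genes with the highest mean. Dlg4 was added after its values were seen. Of each synaptic list, up to 3 called genes and the uncalled gene with the highest mean were named. Paralog pairs were tested over 70 arrangements of the mice. The alternatives were quantile normalization, median centring, leaving out the dimmest 40% of genes, the mean of all probe sets, array weights, leaving out probe sets ending in _s_at or _x_at, the cortical marker score as a covariate, robust moderation with an intensity trend, and leaving out each mouse. Figures were drawn with matplotlib 3.10.9 in Python 3.11.15.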

Additional observations from a re-analysis of the deposited data

Results flagged for a closer look

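Among 80 groups of 4 mice (the 30 members, the mean score over all members and the scores of their 9 role groups, in each genotype), 5 held a mouse that lay far from the other 3 by Dixon's criterion, and chance alone marks about 1 in 20 such groups. Wild-type mouse 63 had an Anks1b log2 value of 9.82, against 10.10 to 10.14 in the other wild-type mice, and a mean score of -0.24 on the actin and spine proteins, against 0.05 to 0.11. Wild-type mouse 42 had a Dlg4 value of 8.05, against 8.86 to 9.0, and a Dlgap4 value of 9.78, against 9.54 to 9.56. R6/2 mouse 64 had a Dlgap1 value of 9.11, against 8.87 to 8.88 in the other R6/2 mice.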

How the results depend on the processing

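All 19 called members kept a negative sign in all 16 alternatives and left-out fits in which they were measured, 14 were called without each mouse in turn, and 11 were called in every one of the 16 (Actn2, Anks1b, Ddn, Dlgap2, Dlgap3, Kalrn, Shank3, Sipa1l1, Strn, Syndig1l and Synpo). The number of members lower ranged from 13 with the cortical marker covariate to 20 after quantile normalization, and from 14 to 18 without 1 mouse, and 0 were higher in each. The members' median was -0.36 with the mean of all probe sets. With the covariate, 511 genes were lower and 804 higher, and without 1 mouse 921 to 1579 were higher. With the covariate, other scaffolds had 1 gene higher, postsynaptic adhesion 3 lower and 1 higher, and spine actin regulators 0 lower and 1 higher. Quantile normalization gave 5 lower AMPA receptor auxiliary subunits and 1 lower spine actin regulator. Without 1 mouse, other scaffolds had 1 to 2 higher, auxiliary subunits 3 to 5 lower, signalling enzymes 1 to 2 higher, adhesion 3 to 5 lower and 1 to 3 higher, spine actin regulators 1 to 2 lower and 1 to 2 higher, and inhibitory sites 0 to 1 lower. Some uncalled differences changed sign, among them Homer2 (-0.20 ± 0.19) and the Iqsec1 minus Iqsec2 pair (0.21 ± 0.073). Dlg1 was 0.021 and the Dlg1 minus Dlg3, Dlg2 minus Dlg4 and Iqsec1 minus Iqsec2 pairs 0.04, 0.064 and -0.12 with the mean of probe sets. Array weights gave Dlg3 0.0034 and Pick1 0.017. The covariate gave Grip1 -0.17, Homer2 0.25, Homer3 -0.00027 and Pick1 0.13. Without 1 mouse, Dlg3 ranged from -0.062 to 0.021, Grip1 from -0.13 to 0.16, Homer3 from -0.022 to 0.052, Pick1 from -0.068 to 0.035, the Dlg2 minus Dlg4 pair from -0.23 to 0.17, and the Dlgap1 minus Dlgap4 pair up to 0.11. The cause was not tested. Without 1 mouse the exact test of a pair cannot give a p below 0.0571. No paired analysis was possible because the genotypes share no mouse numbers.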
